A study of Mus musculus with 6 samples.

Results

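The SLAM receptor family was followed in intestinal crypts, the glands from which the gut epithelium renews itself, in 3 control and 3 YAP transgenic samples. The labels call the controls mice and number the transgenic samples without saying so. The family was taken as 9 genes: the receptors Slamf1, Cd48, Cd244a, Ly9, Slamf6, Slamf7, Slamf8 and Slamf9, and Sh2d1a, which encodes their adaptor. All 9 were measured, each by 1 probe set with a single gene symbol, among 19938 genes in all. The genes were picked by name and each probe set was chosen by the highest mean signal over the 6 arrays, a rule that left no choice here because no member had a second probe set. The family was proposed with earlier results of the same comparison known, so the differences between groups given below describe these arrays and are not independent support for a change in the family.

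By the title of the series, the transgenic crypts carried YAP-S127A, an allele whose product lacks the serine through which Hippo kinases hold the coactivator YAP in check, together with Villin-rtTA. The Villin promoter drives rtTA, the doxycycline-dependent activator, in the intestinal epithelium and not in blood cells. The design text says that mice received doxycycline for 2 days and names no group. The other group is labelled Control, with neither its alleles nor its own treatment stated, so if the controls went without the drug, drug and transgene cannot be told apart. The sources used here give no strain, sex, age or segment of intestine. Crypts were released from the washed intestine with EDTA and not cultured or sorted, so lymphocytes and other cells that stay with the epithelium were not removed by any step the labels name.

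SLAM receptors are immunoglobulin-superfamily proteins on the surface of blood cells, and most of them bind a copy of themselves on a neighbouring cell. Cd48 and Cd244a are the exceptions among those measured: Cd48 is held in the membrane by a lipid anchor and is the ligand of 2B4, the receptor that Cd244a encodes. Inside the cell the longer receptors carry tyrosine motifs that recruit SAP, the product of Sh2d1a, or the related EAT-2 adaptors, and through SAP the Src-family kinase Fyn. Slamf8 and Slamf9 have short tails without these motifs. In the gut these receptors are known from intraepithelial lymphocytes and from macrophages, not from the epithelium itself.

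The 8 receptor genes lie on mouse chromosome 1 and Sh2d1a lies on the X chromosome, so the family is not a single locus. In the order of a RefSeq gene table (assembly GRCm38.p6), Cd244a, Ly9, Slamf7, Cd48, Slamf1 and Slamf6 stand in a first group, and Slamf9 and Slamf8 in a second one farther along, with unrelated genes between them. Cd84, a further SLAM receptor, stands between Slamf1 and Slamf6 and was not among the 9 genes. It is described with the signalling partners below.

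RefSeq promoter windows were found for 7 of the 9 genes. Those of the 4 genes with the largest differences are shown, as the 250 bases before the start site, with the motifs that were searched for in them. Each reads 5′ to 3′ on the strand of its gene, and capitals mark matches, on either strand, to 1 of 4 short motifs: GGAATG of TEAD factors, through which YAP binds DNA, TGTGGT of RUNX factors, GAGGAA of SPI1, and TGANTCA of AP-1. The windows are, in GRCm38.p6, chr1:172475110-172475359 on the plus strand for Slamf9, chr1:171681742-171681991 on the plus strand for Cd48, chr1:171558943-171559192 on the plus strand for Cd244a and chr1:171649000-171649249 on the minus strand for Slamf7.
Slamf9: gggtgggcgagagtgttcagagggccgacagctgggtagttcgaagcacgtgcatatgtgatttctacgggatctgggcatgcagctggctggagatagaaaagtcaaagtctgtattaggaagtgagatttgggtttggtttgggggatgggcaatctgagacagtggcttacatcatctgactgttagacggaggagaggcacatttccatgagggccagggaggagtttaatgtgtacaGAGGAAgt
Cd48: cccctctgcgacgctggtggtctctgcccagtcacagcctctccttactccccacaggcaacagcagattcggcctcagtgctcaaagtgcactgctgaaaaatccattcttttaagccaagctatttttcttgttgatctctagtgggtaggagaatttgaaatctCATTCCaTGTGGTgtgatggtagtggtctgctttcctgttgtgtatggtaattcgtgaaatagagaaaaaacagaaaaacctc
Cd244a: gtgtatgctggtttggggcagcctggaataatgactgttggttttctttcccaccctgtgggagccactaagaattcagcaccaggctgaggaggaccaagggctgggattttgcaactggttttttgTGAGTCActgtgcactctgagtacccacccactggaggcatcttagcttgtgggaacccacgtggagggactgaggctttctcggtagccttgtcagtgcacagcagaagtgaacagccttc
Slamf7: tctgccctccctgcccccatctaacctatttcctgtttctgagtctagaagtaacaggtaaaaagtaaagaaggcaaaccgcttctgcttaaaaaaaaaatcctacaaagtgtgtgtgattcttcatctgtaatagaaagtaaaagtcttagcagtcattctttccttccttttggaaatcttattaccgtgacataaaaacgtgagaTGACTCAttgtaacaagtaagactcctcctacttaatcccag

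The capitals in Cd48 are a TEAD and a RUNX match separated by a single base, beginning 83 and 76 bases before the start site, with the TEAD match on the opposite strand. Those in Slamf9 are an SPI1 match beginning 8 bases before it. In Cd244a and Slamf7 they are AP-1 matches, which read alike on both strands, beginning 122 and 42 bases before it. None of the motifs was found in more than 2 of the 7 windows. The TEAD letters were in 1 of 7 and in 12.64% of 32851 RefSeq windows of the same length, RUNX in 1 and 14.05%, SPI1 in 1 and 23.25%, and AP-1 in 2 and 6.75%. A match describes these letters in this window and is not evidence that a factor bound there.

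All 9 family genes had a higher mean signal in transgenic than in control crypts, with a median difference of 0.52 on the log2 scale against 0.03 for all genes tested. Every log2 difference is transgenic minus control. By limma's test, with Benjamini-Hochberg adjustment across the 19938 genes and a threshold of 0.05, 6 of the 9 were called higher and none lower where 7.50% of all genes were called higher and 6.70% lower. At an unadjusted p below that threshold the counts were 7 and 0, beside 13.7% and 16.2% of all genes. The 6 were Slamf9, Cd48, Cd244a, Slamf7, Ly9 and Slamf6. For 7 of the 9 the groups did not overlap, every transgenic sample being above every control, where this held for 16.5% of all genes. Since the family was chosen with this comparison known, nothing is read from these counts beyond the values themselves. Without control mouse 1, 2 or 3 or transgenic sample 1 or 3, 5 members were called higher, and without transgenic sample 2 there were 7. The share of all genes called higher moved with these settings, from 3.36% to 5.72% in the former to 14.1% in the latter.

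**Figure D1:**
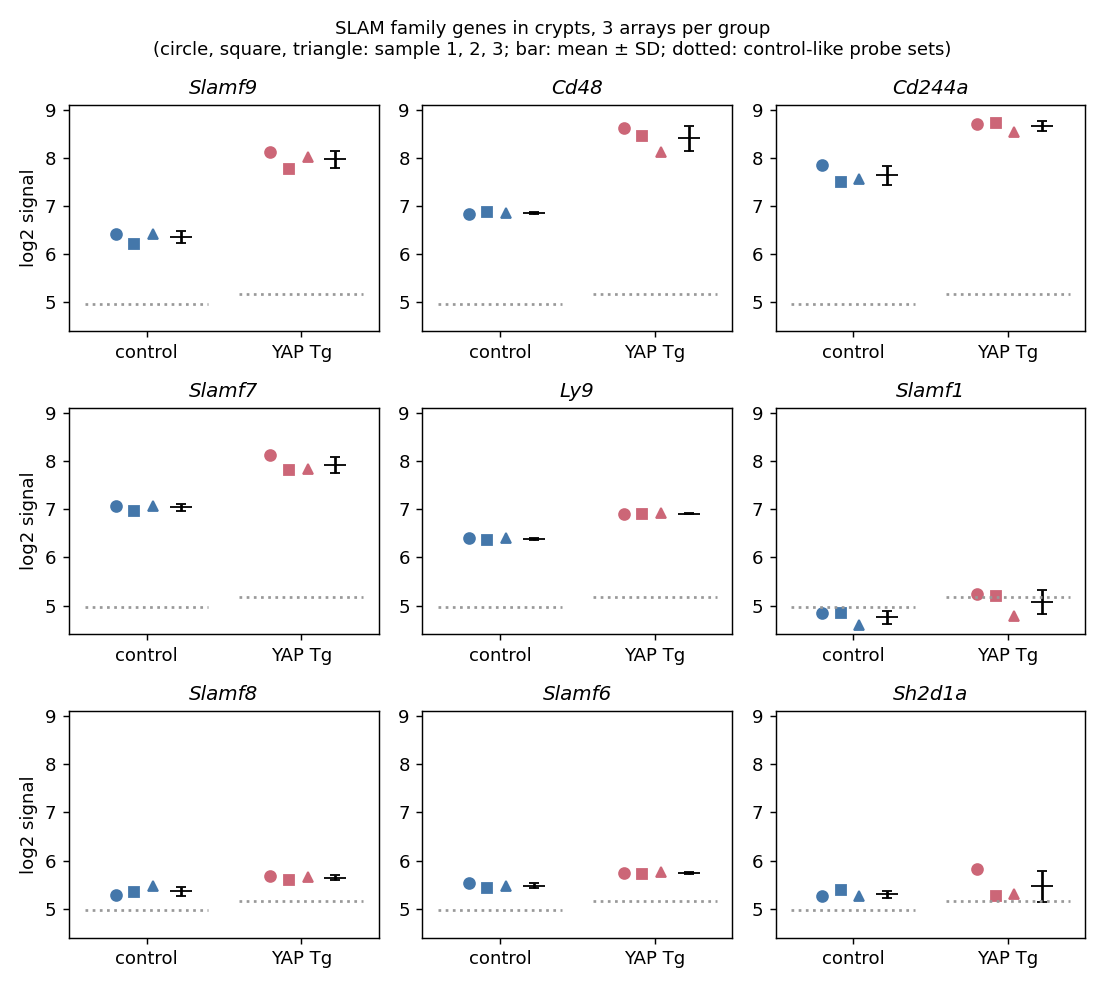
Log2 signal of the 9 SLAM family genes (vertical axes) in 3 control and 3 YAP transgenic arrays. Symbols are samples 1 to 3, black bars the mean ± SD, and dotted lines the mean over arrays of the median signal of control-like probe sets. Slamf9, Cd48, Cd244a and Slamf7 stand well apart between groups, whereas Slamf1 lies near or below the dotted lines.

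Cd48, the anchored ligand of 2B4, and Cd244a, which encodes 2B4, form the receptor-ligand pair of the family, and both were higher. Cd48 had log2 signals of 6.84, 6.86 and 6.85 in control mice 1 to 3 and 8.63, 8.44 and 8.13 in transgenic samples 1 to 3. The controls were almost equal, and the transgenic samples were all higher but spread over a wider range. The means were 6.85 ± 0.013 (SD, n = 3) and 8.40 ± 0.25, a difference of 1.55 (SE 0.13, 95% interval 1.23 to 1.87), or 2.93-fold. Cd244a stood at 7.85, 7.49 and 7.57 in the controls and at 8.69, 8.73 and 8.53 in the transgenic samples. Here control mouse 1 was above the other controls, and the groups still did not overlap. The difference was 1.02 (SE 0.12, 95% interval 0.73 to 1.30), or 2.02-fold, with means of 7.63 ± 0.19 and 8.65 ± 0.11.

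Among receptors that bind themselves and carry the signalling motifs, the differences ran from 0.88 down to 0.26. Slamf7, also named CRACC and known from natural killer, cytotoxic T and plasma cells, had signals of 7.07, 6.96 and 7.07 in the controls and 8.12, 7.81 and 7.83 in the transgenic samples. Transgenic sample 1 was the highest, and all 3 were above the controls. The means of 7.04 ± 0.065 and 7.92 ± 0.17 differed by 0.88 (SE 0.10, 95% interval 0.63 to 1.13), or 1.84-fold. Ly9, a receptor of T and B cells, stood at 6.40, 6.36 and 6.40 in the controls and at 6.90, 6.90 and 6.91 in the transgenic samples. Both groups were tight, and the difference of 0.52 (SE 0.06, 95% interval 0.37 to 0.66) was far larger than their spread.

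Slamf6, also named Ly108, had signals of 5.53, 5.43 and 5.48 in the controls and 5.75, 5.73 and 5.75 in the transgenic samples. The groups did not overlap, but the difference of 0.26 (SE 0.06, 95% interval 0.11 to 0.42) was small and its call was the least firm of the 6. It was lost without control mouse 1, 2 or 3 (limma's adjusted p = 0.118, 0.158 and 0.130) and without transgenic sample 1 or 3 (0.0901 and 0.0867). Slamf1, the receptor CD150 that marks blood stem cells in the mouse, had signals of 4.84, 4.84 and 4.60 in the controls and 5.23, 5.19 and 4.79 in the transgenic samples. Transgenic sample 3 fell within the control range, and the difference of 0.31 (SE 0.14, 95% interval -0.03 to 0.66) did not pass the test.

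The receptors with short tails, both known from myeloid cells, differed from each other. Slamf9 had the largest difference of the family, with signals of 6.411, 6.200 and 6.425 in the controls and 8.119, 7.765 and 8.005 in the transgenic samples. All transgenic values were more than a unit above every control. The means of 6.35 ± 0.13 and 7.96 ± 0.18 differed by 1.62 (SE 0.12, 95% interval 1.33 to 1.90), or 3.07-fold. Slamf8 stood at 5.28, 5.34 and 5.47 in the controls and at 5.68, 5.59 and 5.66 in the transgenic samples. The groups did not overlap, yet the difference of 0.28 (SE 0.08, 95% interval 0.09 to 0.46) missed the threshold (limma's adjusted p = 0.0643) and passed it without transgenic sample 2 (0.0341).

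Sh2d1a, the gene of the adaptor SAP, had signals of 5.26, 5.38 and 5.26 in the controls and 5.83, 5.26 and 5.31 in the transgenic samples. Only transgenic sample 1 was above the controls, and the value of transgenic sample 2 was the same as that of control mice 1 and 3. The difference of 0.17 (SE 0.16, 95% interval -0.22 to 0.56) did not pass the test. This interval covers both no difference and one as large as that of Ly9.

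In order of difference the family ran from Slamf9 and Cd48 through Cd244a, Slamf7 and Ly9 to Slamf1, Slamf8, Slamf6 and Sh2d1a. Measured from the control mean, the 3 transgenic values of Slamf9 lay at 1.42 to 1.77 and those of Cd48 at 1.28 to 1.78, so these neighbours overlapped. The range of Cd244a, 0.89 to 1.09, lay below both and overlapped that of Slamf7, 0.77 to 1.08. Ly9, at 0.51 to 0.52, lay below Slamf7 and above the ranges of Slamf1 (0.03 to 0.47), Slamf8 (0.22 to 0.31) and Slamf6 (0.25 to 0.27), and Sh2d1a overlapped all of these at -0.04 to 0.54. Transgenic sample 1 had the highest transgenic value for 6 of the 9 genes, and sample 2 the lowest for 6.

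The members with small differences had signals near those of 6617 control-like probe sets, unnamed ones that were assumed to be array controls, which themselves differed between groups. Their median was 4.97 to 4.99 in the control mice and was 5.33, 5.15 and 5.03 in transgenic samples 1, 2 and 3, a mean difference of 0.196. Slamf1 lay below the control-like median of every array except transgenic sample 2, where it stood 0.04 above, so the size of its difference is uncertain. After the control-like median was subtracted from each array, the differences of Slamf1, Slamf6, Slamf8 and Sh2d1a were 0.12, 0.07, 0.08 and -0.03, with groups that overlapped. The difference of Ly9 was 0.32, with groups that did not overlap and limma's adjusted p = 0.123. Those of Slamf9, Cd48, Cd244a and Slamf7 were 1.42, 1.35, 0.82 and 0.69, and these 4 kept their calls (limma's adjusted p from 2.3e-04 to 0.00651). This scaling, chosen after the data were seen, moved the median of all genes from 0.03 to -0.17, and it called 951 genes higher and 2683 lower in place of 1495 and 1336.

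**Figure D2:**
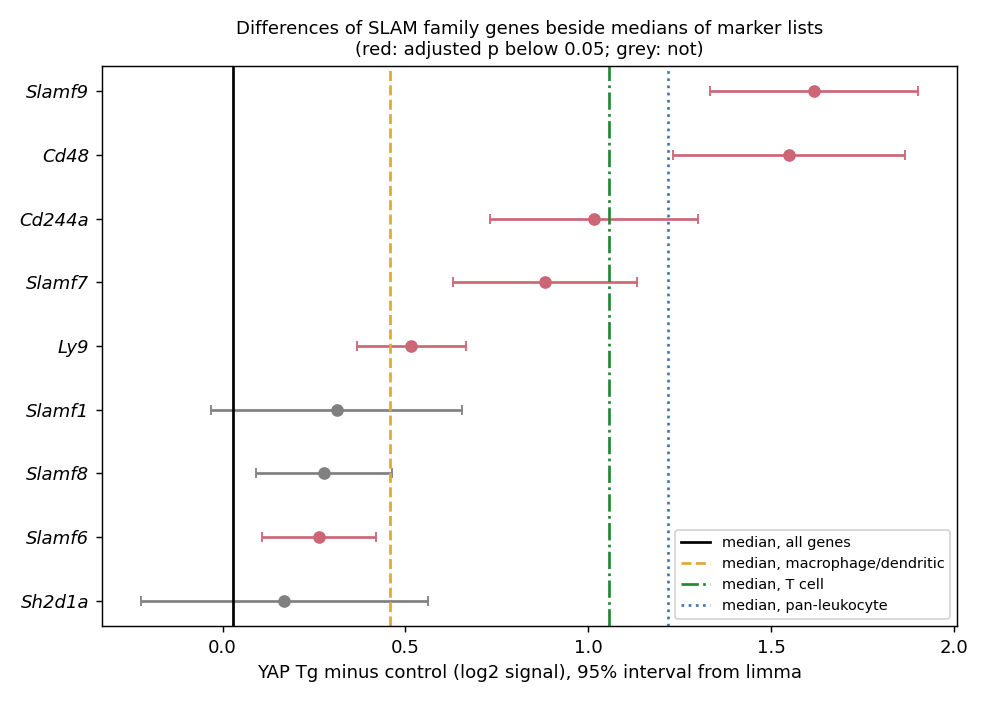
Difference between YAP transgenic and control crypts (horizontal axis, log2 signal) for each SLAM family gene with limma's 95% interval; red points were called and grey points were not. Vertical lines are the median differences of all genes (0.03), macrophage and dendritic cell markers (0.46), T cell markers (1.06) and pan-leukocyte markers (1.22). The pan-leukocyte markers themselves ran from 0.60 to 2.06, a range that holds the values of Slamf9, Cd48, Cd244a and Slamf7.

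Markers shared by leukocytes and markers of T and cytotoxic lymphocytes were higher in the same arrays, whereas those of B, plasma and natural killer cells were not called. Of 13 pan-leukocyte markers, genes expressed by nearly all white blood cells, 13 were called higher, with a median difference of 1.22. They included Ptprc, which encodes CD45 (1.32, SE 0.06), and Cd53 (2.06, SE 0.09). Of 13 T cell markers 13 were higher, with a median of 1.06, including Cd3g (1.72) and Cd8a (1.46), and of 14 genes of cytotoxic and intraepithelial lymphocytes 11 were higher, with a median of 1.32, including the integrin Itgae (1.37) and granzyme A, Gzma (1.36). Nkg7 and Cd3d, of the same lists, were higher by 1.46 (SE 0.12) and 1.59 (SE 0.12). Summed over the list on the linear signal scale, the pan-leukocyte markers stood at 4057 to 4347 in control and 9726 to 10684 in transgenic arrays. The T cell markers stood at 3256 to 3914 and 8611 to 9052, and no marker of either list had a mean signal below the median of the control-like probe sets. After the control-like median was subtracted from each array, 12 of the 13 pan-leukocyte (median 1.02), 8 of the 13 T cell (0.86) and 11 of the 14 cytotoxic markers (1.12) were called higher. Of all genes 4.77% were.

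Macrophage and dendritic cell markers were higher in part, 8 of 18 with 1 lower and a median of 0.46. Their summed signal was 2389 to 3218 in control and 3763 to 5255 in transgenic arrays. Tyrobp, an adaptor shared with natural killer cells, was higher by 1.71 (SE 0.22) and Csf1r, the receptor that macrophages depend on, by 0.85 (SE 0.10). After subtraction of the control-like median 5 of the 18 were higher and 1 lower, beside 4.77% and 13.5% of all genes. Without control mouse 1, 2 or 3 there were 3, 4 and 2 of the 18 higher, with 1 lower in the last. Without transgenic sample 1, 2 or 3 there were 5, 9 and 7 higher, with 2 lower without sample 2. T cell markers called higher without control mouse 1, 2 or 3 were 9, 9 and 11 of 13. Pan-leukocyte markers were 11 of 13 each time. The share of all genes called higher was 3.36% to 3.70% without a control and 5.36% to 14.1% without a transgenic sample. By limma none of 10 B and plasma cell markers, 5 natural killer cell markers, 9 mast cell and basophil markers or 9 granulocyte markers was called, and at an unadjusted p below 0.05 the counts in either direction were 2, 1, 1 and 1, beside 13.7% of all genes higher and 16.2% lower. Of the natural killer markers 4 of 5, of the mast cell and basophil markers 4 of 9, and of the granulocyte markers 3 of 9 had mean signals below the median of the control-like probe sets. None of 6 endothelial or 10 fibroblast and muscle markers was called by limma either, against 2 and 0 at that unadjusted threshold.

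In bulk RNA, more cells of a type and more RNA per cell cannot be told apart, and the part of leukocyte number in the values of the family was not tested. The single pan-leukocyte markers had differences from 0.60 to 2.06, of which 1 was larger than that of Slamf9, 2 than that of Cd48, 8 than that of Cd244a and 9 than that of Slamf7, and all 13 were larger than those of the other members. Set against the median of these markers on each array, Slamf9 was above it in all 3 transgenic samples, by 0.59, 0.20 and 0.71, and Cd48 by 0.59, 0.37 and 0.33. Cd244a lay close to it, at -0.13, -0.13 and -0.05, and Slamf7 below it, at -0.10, -0.45 and -0.15. Ly9 stood 0.42 to 0.71 below that median, and Slamf1, Slamf6, Slamf8 and Sh2d1a at least 0.65 below it in every transgenic sample. Against the median of the macrophage and dendritic cell markers, Slamf9 was higher by 1.06, 1.12 and 1.33, and Slamf8 was lower by -0.40, -0.08 and -0.02. Differences on an array depend on the probe set as well as on the RNA, so these offsets describe probe sets, have no test and do not set a member apart from single markers.

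**Figure D3:**
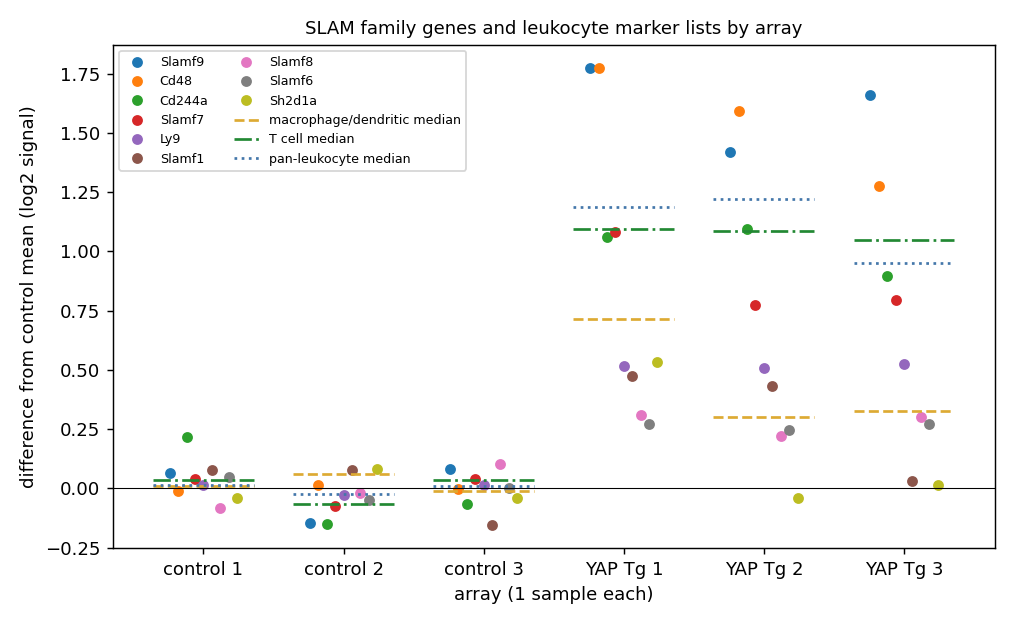
Difference of each SLAM family gene from its control mean (vertical axis, log2 signal) on each of the 6 arrays, with horizontal strokes for the medians of 3 leukocyte marker lists. Slamf9 and Cd48 lie above the pan-leukocyte strokes in all 3 YAP transgenic samples. Cd244a and Slamf7 lie below them by less than Ly9, Slamf1, Slamf6, Slamf8 and Sh2d1a on most arrays.

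Partners of the receptors were read from a list of 26 genes, 23 of them measured. By limma 9 were called higher and none lower, against 15 higher and 1 lower at an unadjusted p below 0.05, with a median difference of 0.42. The shares of all genes were 7.50% and 6.70% by the adjusted test and 13.7% and 16.2% by the unadjusted one. Without control mouse 2 or 3 the count was 6, without control mouse 1 it was 7, and without transgenic sample 2 it was 14, where 3.36% to 3.70% of all genes in the first 3 settings and 14.1% in the last were called higher. After subtraction of the control-like median 8 of the 23 were higher and none lower, beside 4.77% and 13.5% of all genes. The median of the partners was 0.22 there. Many of these genes work in other leukocyte receptors too. The pan-leukocyte and T cell lists above had median differences of 1.22 and 1.06 in the same arrays. Whether the values of the partners are tied to these was not tested.

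At the receptor end, Cd84 had signals of 4.97, 4.91 and 4.93 in the controls and 6.13, 5.65 and 5.67 in the transgenic samples. The controls lay at or below the control-like medians of their arrays, so the size of the difference is uncertain. With the controls set to no less than those medians, Cd84 was 1.79-fold higher, with measured means of 4.94 and 5.82 (limma's adjusted p = 0.0114). That fold is not a lower limit. The transgenic values were left as measured, although the control-like median was higher by 0.196 in that group. The measured difference was 0.88 (95% interval 0.54 to 1.22). The call of Cd84 was lost without control mouse 1, 2 or 3 (0.0588, 0.0610 and 0.0610). Among adaptors, Sh2d1b1, which encodes an EAT-2 protein of natural killer and myeloid cells, rose from 6.27, 5.88 and 5.94 to 7.43, 7.25 and 6.75. That difference of 1.11 (SE 0.20, limma's adjusted p = 0.0163) was not called without control mouse 2 or 3 (0.0791 and 0.0823).

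Fyn, the kinase that SAP recruits, rose from 7.64, 7.64 and 7.62 in the controls to 8.81, 8.84 and 8.80 in the transgenic samples. Both groups were tight and the difference was 1.18 (SE 0.06, limma's adjusted p = 5.2e-04), whereas Sh2d1a itself was not called. The values of Fyn in control mice 1 and 2 were exactly equal. Downstream, the T cell signalling adaptors Lcp2 and Lat rose by 1.24 (SE 0.07) and 1.07 (SE 0.12), and the kinase Prkcq by 0.77 (SE 0.09). Inhibitory partners rose as well: the docking proteins Dok2 by 1.45 (SE 0.13) and Dok1 by 0.42 (SE 0.07), and the lipid phosphatase Inpp5d, known as SHIP1, by 0.77 (SE 0.11). These 6 genes had adjusted p values by limma of 6.9e-04 to 0.0159, and Dok1 lost its call without control mouse 1, 2 or 3 (0.0602, 0.0744 and 0.0675). After subtraction of the control-like median Dok1 was at 0.22 and was not called either (limma's adjusted p = 0.253). The widely expressed phosphatase Ptpn11 (0.22), the kinase Csk (0.21) and the autophagy protein Becn1 (-0.13) did not pass the test.

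The genes around the receptors on chromosome 1 were read in the same fit. In the span from 10 entries before Cd244a to 10 after Slamf8 in the RefSeq table, 27 genes other than the 8 receptor members were measured, with a median difference of 0.10. Of these 7 were called higher and 2 lower, beside 7.50% and 6.70% of all genes. Without control mouse 1, 2 or 3 there were 4 higher and 0 lower, beside 3.36% to 3.70% and 1.85% to 2.32% of all genes. Without transgenic sample 1 or 3 there were 6 and 0, beside 5.36% to 5.72% and 4.07% to 4.46%. Without transgenic sample 2 there were 8 and 2, beside 14.1% and 19.5%. With all arrays the higher genes were Arhgap30, F11r, Cd84, Ncstn, Pea15a, Igsf9 and Tagln2, and the lower ones were Pex19 and Dcaf8. Of these, Cd84 is itself a SLAM receptor and was already counted among the called partners above.

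Igsf9, an immunoglobulin-superfamily gene outside the SLAM family, is the next measured gene after Slamf9. It had signals of 9.32, 9.07 and 8.84 in the controls and 10.39, 10.12 and 10.59 in the transgenic samples. All 3 transgenic values were above the controls by more than the spread of either group, a difference of 1.29 (SE 0.17, limma's adjusted p = 0.00568). Tagln2, an actin-binding protein that stands next after it, was higher by 0.98 (SE 0.14, limma's adjusted p = 0.00741). Vsig8 and Fcrl6, on either side of Slamf8, differed by 0.10 and -0.02 and did not pass. At the other end of the span, F11r, which encodes the tight junction protein JAM-A, was higher by 0.82 (SE 0.10) and Arhgap30 by 0.63 (SE 0.06). After subtraction of the control-like median 4 of the 27 neighbours were higher and 3 lower, beside 4.77% and 13.5% of all genes. Their median was -0.10 there, and Arhgap30, at 0.44, was not called (limma's adjusted p = 0.0550).

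The peroxisome factor Pex19 changed by -0.57 (SE 0.14) and Dcaf8 by -0.52 (SE 0.12), and Ncstn, a subunit of gamma-secretase, by 0.37 (SE 0.09). The 3 had adjusted p values by limma of 0.0349 to 0.0475, and each call was lost without any 1 control or without transgenic sample 1 or 3 (0.0503 to 0.169). Pea15a, higher by 0.64 (SE 0.12), lost its call without control mouse 1, 2 or 3 (0.0715, 0.0552 and 0.0689). Ncstn and Pea15a were not called after that subtraction either (0.460 and 0.0996).

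**Figure D4:**
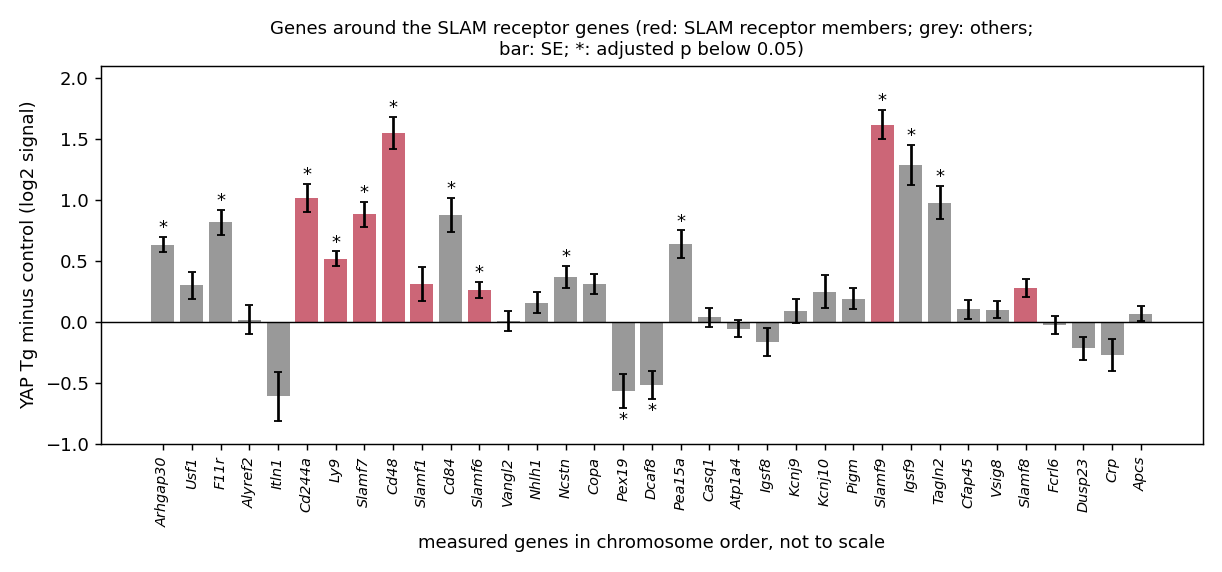
Difference between YAP transgenic and control crypts (vertical axis, log2 signal, bars start at 0, error bars SE) for 35 measured genes in their order on chromosome 1, not to scale. Red bars are SLAM receptor members, grey bars other genes, including the SLAM receptor Cd84, and asterisks mark calls. Igsf9 and Tagln2 follow Slamf9.

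Genes with the profile most like the family were found by Pearson's r over the 6 arrays with the mean centred profile of the 8 members above the median of the control-like probe sets. Among 3390 other genes above that median with a range of at least 1 log2 unit, the 8 most like it were Tbx21, Hcls1, Lat2, Sla2, Acot10, Cd3d, Tpst2 and Ahnak, with r from 0.998 to 1.000. Tbx21 encodes the transcription factor T-bet, Cd3d a chain of the T cell receptor complex, and Lat2, Sla2 and Hcls1 are signalling proteins of blood cells. Their differences ran from 0.85 for Tbx21 to 2.14 for Ahnak, a large scaffold protein of many tissues. All arrays share these 2 groups, so r is high for any gene that separates them and is given as a description.

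The labels were checked on genes known to respond to YAP. Ccn1, Ccn2, Amotl2 and Ajuba were all called higher, with differences of 1.65 to 4.49, while the probe set of Yap1 differed by -0.24 and did not pass (limma's adjusted p = 0.184). Of 11 epithelial markers 6 were called higher (2 to 8 with 1 sample left out) and of 8 crypt markers 4 were lower (2 to 6), with all of them above the median of the control-like probe sets. Of all genes 7.50% were called higher and 6.70% lower. At limma's unadjusted p below 0.05, 7 of the crypt markers were lower, beside 16.2% of all genes. The median differences were 0.28 and -1.30. After subtraction of the control-like median, 2 of the epithelial markers were higher and 5 of the crypt markers lower. The shares of all genes were then 4.77% higher and 13.5% lower. The epithelial and crypt medians were 0.08 and -1.50 there. The summed signal of the crypt markers was 28541 to 30434 in control and 10676 to 15932 in transgenic arrays. The median log2 signal of the 19938 genes was 6.74 to 6.79 on every array.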

How the data were processed

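Total RNA of isolated crypts in 3 control and 3 transgenic samples was labelled with biotin and hybridised to Affymetrix mouse gene arrays, 1 array per sample. The authors deposited log2 signals of 35556 probe sets, and the submitters' processing notes name Affymetrix Expression Console 1.1. The sources used here do not give the background correction, normalization or probe summary. The log2 scale was read from the values, which run from 1.99 to 14.4. Array signals carry no read depth, and the 3 arrays per group limit the precision. The labels call only the controls mice, so p-values measure the spread between these samples.

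The 6617 probe sets numbered below the first named one were assumed, from nothing but their numbers, to be array controls and are called control-like. Of the others, 21789 carried a single symbol, 1621 carried several and 5529 were absent from the annotation table used. Per gene the probe set with the highest mean was used, giving 19938 genes. Symbols were matched by Entrez identifier to RefSeq for 21698 probe sets. Groups were compared with limma 3.58.1 in R 4.3.3 (lmFit and eBayes, two-sided), with Benjamini-Hochberg adjustment over all genes at 0.05. The fit was tested on simulated data.

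The members and lists were chosen with earlier results of these data known. Named genes are all members, the called partners and 3 others of high signal, called neighbours and the 4 nearest to a member, up to 4 called or 2 other genes per marker list, 5 genes that check the labels, and the 8 most like the family. Promoter sequences are from RefSeq (GRCm38.p6), and no entry was found for Ly9 and Sh2d1a. Alternatives left out each array, used quantile normalization, median centring, a block by replicate number, signal filters, another prior, array weights, averaged probe sets, other thresholds and subtraction of the control-like median.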

Additional observations from a re-analysis of the deposited data

How the results depend on the processing

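Cd48, Cd244a, Slamf7 and Slamf9 were called higher under all 17 alternatives, with differences of 1.35 to 1.68, 0.82 to 1.13, 0.69 to 0.96 and 1.42 to 1.72. Ly9 lost its call only after subtraction of the control-like median (0.32). Slamf6 lost its call in 10 of 16 alternatives (0.07 to 0.29), among them quantile normalization and the replicate block (limma's adjusted p = 0.113), and Slamf8 gained one in 4 of 16. Slamf1 and Sh2d1a were called in none of 15 and 16, and Sh2d1a was at -0.03 to 0.27. The number of members called higher was 4 to 7, where 661 to 2802 genes in all were called higher. Subtraction of the control-like median gave 4, beside 4.77% of all genes. A filter on signal also gave 4, but only 4 members passed that filter and all were called.

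With 1 array left out, members called higher numbered 5 to 7, partners called higher 6 to 14, all genes called higher 669 to 2802 and all genes called lower 369 to 3889. All genes called higher and lower numbered 2459 and 3481 with array weights, 661 and 386 at an adjusted p below 0.01, and 951 and 2683 after subtraction of the control-like median, and 2101 were lower at an adjusted p below 0.1. With the replicate number as a block they numbered 975 and 727. The labels do not say whether same-numbered arrays of the 2 groups belong together. Their deviations from the group means correlated across genes at -0.13, 0.01 and 0.10, and arrays of unlike number at -0.13 to 0.12. With 3 arrays per group these values are tied to each other and cannot settle it. For the named genes, 82 of the values under an alternative ended a call and 10 added 1.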

Other observations

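Many genes had exactly equal values on several arrays of a group. Some values, as for Sh2d1a and Fcrl6, were also equal between control and transgenic arrays, and how many genes this held for was not counted. Of the 19938 genes, 12.1% had the same log2 signal on 2 control arrays and 2.17% on all 3. Among the SLAM family genes Slamf1, Ly9, Slamf7 and Sh2d1a had 2 equal control values, as did the partner Fyn. The partners Lcp2 and Inpp5d, the lymphocyte receptor Cd160 and the leukocyte transcription factor Ikzf1 had 3, so that their control SD was 0 and the error of their difference rests on the transgenic arrays and on the spread that limma borrows from other genes. Which processing step gives equal values was not tested.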
